A study of Macaca mulatta with 24 samples.

Results

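Cell division genes, 38 in all, were examined in RNA of white fat from the omentum, sampled in 24 rhesus macaques, all female. They are the cyclins, the kinases that cyclins switch on, the inhibitors of those kinases, and genes for copying DNA and for mitosis. They come from a list of symbols, each matched to the count table through a table that pairs gene IDs with symbols, or else through the ID and name columns of the study's supplementary tables. Where 1 symbol had several IDs, the ID with the most counts was kept. Of the 38 genes, 33 were matched, and all 33 were among the 15207 genes tested out of 32386 in the table. CCND2, CDK2, CDKN1A, CDKN1B and UBE2C were not matched and were not analysed here.

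The macaques entered the study around puberty and were treated for 3 years with an implant and a diet. Group C had cholesterol control implants and chow, and group T had testosterone implants and chow. Group WSD had cholesterol implants and a high-fat Western-style diet (WSD), and group T+WSD had testosterone implants with that diet. Each group had 6 animals, 1 library each, from a biopsy taken in year 3, and an animal is named below by its group and replicate number. Age stands at 4 years in the labels and higher in the study's methods, and no test used it. The authors had picked these animals as typical of their group's findings, so each group stands for selected animals and not for all that were treated.

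Library totals ran from 6899185 to 28270776 counts, and the 4 group medians lay between 20293398 and 22389113. In 8 libraries, 2 in each group (C 1 and 2, T 13 and 14, WSD 19 and 20, T+WSD 7 and 8), the same single gene took 9.92% to 54.7% of all counts, and in the other 16 no more than 5%. Many results are given with and without these libraries, and for some single genes only a range over other ways of processing is given. The tissue label was checked against 7 of 8 listed adipocyte genes found in the table. All 7 were tested, FABP4 had the most counts, and none was near 0 in all animals. Their summed level had its lowest, median and highest values at 2661, 10280 and 13850 counts per 1000000 (CPM) in C, and at 13510, 18480 and 20920 CPM in T+WSD. Levels below are CPM with TMM-scaled totals, and levels of different genes are not compared because no gene lengths were at hand, so the gene named for a marker list is the one with the most counts.

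A cell that leaves rest makes D-type cyclins, which switch on CDK4 and CDK6 and so take the brake protein RB1 off the E2F factors. E2F factors then drive the genes for copying DNA, and later the kinase CDK1 with the B-type cyclins takes the cell into mitosis. In adult adipose tissue fat cells themselves rarely divide, and most dividing cells are precursors, immune cells and cells of blood vessels.

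None of the 33 genes passed the test with its fold threshold in any of the 8 comparisons made. The summed level of mitosis genes had a lower median in all 3 treated groups than in C, yet the groups overlapped, and for single genes such as MKI67 some animals of every group had levels many times those of others. CDK4 was the gene that stood most clearly apart: all 6 T+WSD animals lay below every C animal and every T animal, by less than the fold threshold. Genes for copying DNA were lower in T+WSD than in WSD in 10 of 10 cases, none past the test. The tissue was sequenced whole, so a change in the mix of cells, dividing or not, and a change in RNA per cell cannot be told apart.

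The test was edgeR's quasi-likelihood F-test with p adjusted over all 15207 genes, and a gene was called where the adjusted p was under 0.05 and the fold change more than 1.5. In T against C it called 0 of 33 genes (0% of all genes tested). At an adjusted p under 0.05 alone there were also 0 (0% of all genes), at an unadjusted p under 0.05 there were 0 (8.63% of all genes). DESeq2 called 0 of 33 there (0.029% of all genes it tested) and had 1 at an unadjusted p under 0.05 (6.93%). WSD against C gave 0 calls (0% of all genes) and 0 at an adjusted p under 0.05 (0% of all genes). In that comparison 1 gene, CDK6, had an unadjusted p under 0.05 (18.5% of all genes), and DESeq2 called 0 (1.58% of all genes by DESeq2) and had 1 at that level (13%). T+WSD against C gave 0 calls where 10% of all genes, 1522 of them, were called, and 1 gene, CDK4, at an adjusted p under 0.05 (17.1% of all genes). There, 3 genes (CDK4, PCNA and RRM1) had an unadjusted p under 0.05 (32.1% of all genes), and DESeq2 called 0 (10.9% of all genes by DESeq2) and had 2 at that level (21.7%). These 3 comparisons share the same C animals, and their counts are not independent of each other.

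T+WSD against WSD gave 0 calls (0.815% of all genes) and 0 at an adjusted p under 0.05 (1.67% of all genes). There, 4 genes (CDK4, MCM4, PCNA and RRM1) had an unadjusted p under 0.05, which is 12.1% of the 33 (20% of all genes), and DESeq2 called 0 (2.62% of all genes by DESeq2) and had 5 at that level (14%). T+WSD against T gave 0 calls (3.77% of all genes), 1 gene, CDK4, at an adjusted p under 0.05 (6.5% of all genes), and 4 at an unadjusted p under 0.05 (25.9% of all genes). DESeq2 gave 0 calls for it (6.1% of all genes by DESeq2) and 4 at an unadjusted p under 0.05 (18.6%). The diet main effect gave 0 calls (5.3% of all genes), CDK4 alone at an adjusted p under 0.05 (11.9% of all genes) and 1 at an unadjusted p under 0.05 (29.1% of all genes), with 0 calls (6.78% of all genes) and 2 such genes (20.1%) by DESeq2. The testosterone main effect gave 0 calls (0% of all genes), 0 at an adjusted p under 0.05 (0% of all genes) and 2, PCNA and AURKA, at an unadjusted p under 0.05 (16.5% of all genes), with 0 calls (0.872% of all genes) and 4 such genes (11.4%) by DESeq2. For the interaction, the difference that WSD made with testosterone less the difference it made without, 0 genes had an adjusted p under 0.1 (0.809% of all genes). There, 4 genes (CDK4, CDK6, MCM4 and RRM1) had an unadjusted p under 0.05 (13.5% of all genes), and DESeq2 called 0 (2.77% of all genes by DESeq2) and had 4 at that level (10.1%).

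Of the 33 genes, 26 had negative log2 fold changes in T+WSD against C, 25 under each other scaling, and the median was -0.33 beside -0.04 over all genes tested. In T against C, 19 of 33 were negative, with a median of -0.16 beside -0.02. WSD against C had 21 negative with a median of -0.04 beside -0.02. T+WSD against WSD had 25 negative with a median of -0.19 beside -0.03, and T+WSD against T had 19 with -0.17 beside -0.03. For the interaction the median was -0.03 and turned to 0.03 with upper-quartile scaling, but the roles went different ways, none past the test. Genes of DNA copying had 8 of 10 negative with a median of -0.38, of -0.07 with T 13 left out, and of -0.03 with 6 of 10 negative without the 8 libraries. G2 and mitosis genes had 11 of 14 positive with a median of 0.44, and of 0.75 without those libraries. The fold changes of all 33 genes lie side by side in 3 comparisons with C, as the chart shows.

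**Figure D1:**
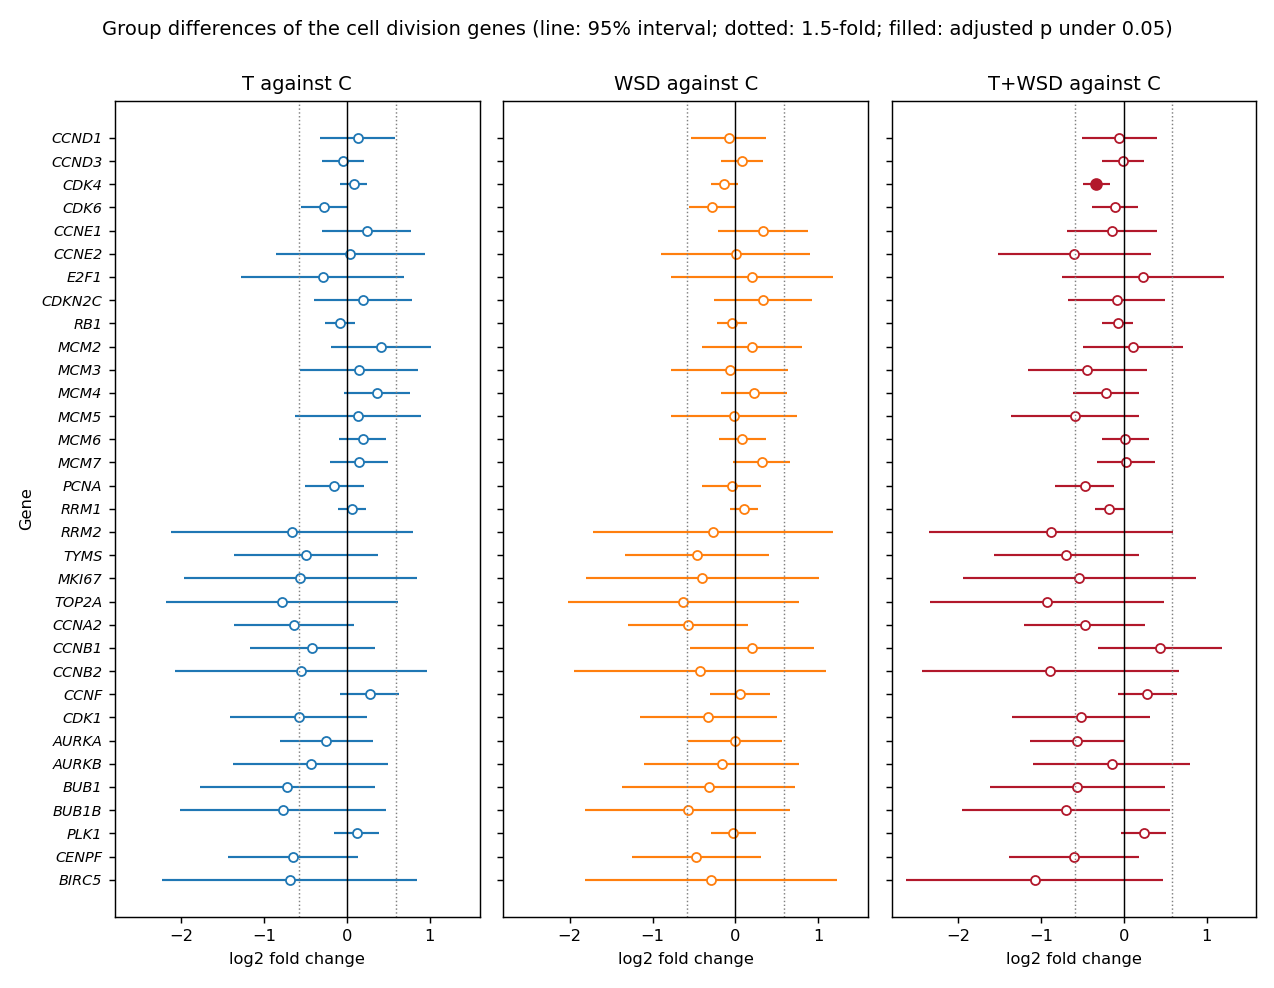
Log2 fold changes of the 33 genes, 1 line per gene ordered by role, in each treated group against C (n = 6 per group), with 95% intervals as bars. Filled points have an adjusted p under 0.05, which only CDK4 in T+WSD against C reached, at -0.33.

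Of the D-type cyclins and their kinases 4 of 5 were tested, and of these only CDK4 had an adjusted p under 0.05. CDK4, the kinase that D-type cyclins switch on, had lowest, median and highest levels of 70.3, 78.1 and 88.3 CPM in C (n = 6) and of 75.7, 82.1 and 92.5 CPM in T (n = 6). In WSD they were 60.1, 70.2 and 83.5 CPM, and in T+WSD 59.7, 62.2 and 66.0 CPM (n = 6 each). The highest T+WSD animal lay below the lowest C animal and the lowest T animal, while WSD animals spread across T+WSD and C. CDK4 had a log2 fold change of -0.33 ± 0.08 (standard error; 95% interval -0.49 to -0.17) in T+WSD against C, with an adjusted p of 0.00894. Against T it was -0.41 ± 0.08 (-0.58 to -0.25), with an adjusted p of 0.00631. The diet main effect was -0.27 ± 0.06 with an adjusted p of 0.00815, and all 3 fold changes were smaller than 1.5.

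CDK4 did not reach an adjusted p under 0.05 elsewhere: T+WSD against WSD gave -0.19 (adjusted p 0.166), WSD against C -0.14 (adjusted p 0.351) and T against C 0.08 (adjusted p 0.790). The interaction for CDK4 was -0.28, with an unadjusted p of 0.0206 and an adjusted p of 0.275. Without the 8 libraries the interaction was -0.14 (adjusted p 0.749) and T+WSD against WSD -0.12 (adjusted p 0.596). Without them CDK4 in T+WSD against C was -0.30 with an adjusted p of 0.0898, and over 34 alternatives this p ran from 0.00145 to 0.0898 and was under 0.05 in 33. T+WSD against T was then -0.32 with an adjusted p of 0.0568, in a range of 0.000112 to 0.0568 that was under 0.05 in 33 of 34. The diet main effect of CDK4 kept an adjusted p under 0.05 in 33 of 33 alternatives, with a range of 0.000174 to 0.0338.

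CCND1, a D-type cyclin made in answer to growth signals, had lowest, median and highest levels of 72.5, 87.2 and 115 CPM in C, 61.7, 90.7 and 146 CPM in T, 53.8, 84.1 and 121 CPM in WSD, and 61.8, 79.5 and 137 CPM in T+WSD (n = 6 each). The 4 groups covered each other almost fully, and the single highest level was that of animal T 17. T+WSD against C gave CCND1 a log2 fold change of -0.05 ± 0.22 (adjusted p 0.902). CCND3, another D-type cyclin, had levels of 34.3, 39.2 and 44.0 CPM in C, 27.1, 37.4 and 46.0 CPM in T, 33.5, 40.3 and 55.3 CPM in WSD, and 34.1, 39.3 and 41.9 CPM in T+WSD (n = 6 each). Here too the groups overlapped, with medians close together. CCND3 had a log2 fold change of -0.01 ± 0.12 in T+WSD against C (adjusted p 0.985), which turned positive, at most 0.02, under each other scaling. CDK6, a kinase that works like CDK4 and was chosen after its values were seen, had a median of 90.6 CPM in C and 79.3 CPM in WSD, with a log2 fold change of -0.28 and an adjusted p of 0.26. The lowest WSD level of CDK6 was that of WSD 20, at 47.7 CPM, and the next WSD animal had 72.2 CPM.

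Inhibitors and RB1 were tested in 2 of 4 cases, and neither gene stood apart in any group. CDKN2C, which blocks CDK4 and CDK6, had lowest, median and highest levels of 48.0, 137 and 217 CPM in C, 101, 141 and 249 CPM in T, 95.8, 190 and 224 CPM in WSD, and 92.7, 135 and 147 CPM in T+WSD (n = 6 each). C 1 lay far under the other C animals, and the T+WSD animals all lay within the range of C. CDKN2C had log2 fold changes of -0.09 ± 0.29 in T+WSD against C (adjusted p 0.873) and -0.42 in T+WSD against WSD (adjusted p 0.431). RB1, the brake on E2F factors, had levels of 48.6, 51.4 and 58.3 CPM in C, 39.0, 48.5 and 61.1 CPM in T, 46.4, 49.7 and 56.7 CPM in WSD, and 46.0, 48.6 and 55.5 CPM in T+WSD (n = 6 each). All 4 groups overlapped, and T held both the lowest and the highest animal. RB1 had a log2 fold change of -0.08 ± 0.09 in T+WSD against C, with an adjusted p of 0.603.

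E2F1, a factor that drives genes for copying DNA, was spread widely in 3 groups and narrowly in T+WSD. Its lowest, median and highest levels were 2.36, 3.65 and 6.32 CPM in C, 1.09, 2.01 and 9.72 CPM in T, 1.69, 4.12 and 8.55 CPM in WSD, and 4.18, 4.63 and 5.43 CPM in T+WSD (n = 6 each). Animal T 13 had the highest level of all, and the next T animal had 4.13 CPM, below every T+WSD animal. E2F1 had a log2 fold change of 0.52 ± 0.48 in T+WSD against T with an adjusted p of 0.522. Without T 13 it was 1.2 with an adjusted p of 0.0993, and without the 8 libraries 1.63 with an adjusted p of 0.0435, which is a call, in a range over the alternatives of 0.0435 to 0.719. The diet main effect of E2F1 was 0.36 with an adjusted p of 0.505, and without the 8 libraries 1.03 with an adjusted p of 0.0381, also a call, in a range of 0.0381 to 0.711. E-type cyclins work with CDK2 at the start of DNA copying: CCNE1 had group medians from 6.06 CPM (T+WSD) to 7.76 CPM (WSD), and CCNE2 from 1.14 CPM (T+WSD) to 2.06 CPM (C), neither with an unadjusted p under 0.05 in any comparison.

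Genes for copying DNA and supplying its building blocks, 10 of 10 tested, had their lowest median of summed levels in T+WSD, although the lowest single animal was in C. The lowest, median and highest sums were 166, 229 and 254 CPM in C, 196, 207 and 406 CPM in T, 198, 213 and 295 CPM in WSD, and 178, 190 and 216 CPM in T+WSD (n = 6 each). In T+WSD against WSD all 10 log2 fold changes were negative under every scaling, with a median of -0.33, and in T+WSD against C 7 of 10 were, also with a median of -0.33. Against T, all 10 in T+WSD were negative with a median of -0.27, but this rested on T 13, the T animal with the highest level of all 10 genes. With T 13 left out 5 of 10 were negative with a median of -0.03, and without the 8 libraries 3 of 10 with a median of 0.03. T against C had a median of 0.14, of -0.20 with T 13 left out and of -0.30 without the 8 libraries. Without those libraries T+WSD against WSD still had 10 of 10 negative (median -0.37), and T+WSD against C 8 of 10 (median -0.32).

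MCM2, part of the ring that opens the DNA strands, had lowest, median and highest levels of 9.39, 15.4 and 20.9 CPM in C, 11.9, 16.1 and 48.9 CPM in T, 10.8, 15.6 and 28.8 CPM in WSD, and 13.9, 16.2 and 21.5 CPM in T+WSD (n = 6 each). T 13 held the highest level and the next T animal had 19.6 CPM, inside the range of C. MCM2 had a log2 fold change of 0.41 ± 0.29 in T against C (adjusted p 0.704), of -0.03 without T 13 and of -0.18 without the 8 libraries. Its value in T+WSD against T was -0.30 (adjusted p 0.545), and 0.14 without T 13 and 0.28 without the 8 libraries. For T+WSD against C it was 0.11 with an adjusted p of 0.841.

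PCNA, the clamp that holds the copying enzymes on DNA, had lowest, median and highest levels of 20.3, 26.1 and 28.7 CPM in C, 17.1, 19.8 and 37.7 CPM in T, 19.7, 20.7 and 31.5 CPM in WSD, and 14.7, 17.7 and 20.8 CPM in T+WSD (n = 6 each). T+WSD had the lowest animals and overlapped C only at its upper end, while T 13 stood alone at the top with the next T animal at 21.2 CPM. PCNA had a log2 fold change of -0.47 ± 0.17 (-0.83 to -0.12) in T+WSD against C, with an unadjusted p of 0.0119 and an adjusted p of 0.0617. The adjusted p was 0.0183 without T 13, 0.0205 with only the 2 groups fitted and 0.137 without the 8 libraries, in a range over the alternatives of 0.0183 to 0.149. In T+WSD against WSD it was -0.43 (adjusted p 0.164), and the testosterone main effect was -0.29 (adjusted p 0.237).

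RRM1 and MCM4 were chosen after their values were seen. RRM1, a subunit of the enzyme that makes DNA building blocks, had lowest, median and highest levels of 51.9, 53.5 and 59.1 CPM in C, 52.2, 53.2 and 65.9 CPM in T, 46.7, 58.3 and 70.7 CPM in WSD, and 42.8, 48.9 and 50.9 CPM in T+WSD (n = 6 each). All T+WSD animals lay below all C and all T animals, by a small step. RRM1 had log2 fold changes of -0.18 ± 0.08 against C (adjusted p 0.147), -0.28 against WSD (adjusted p 0.0766) and -0.23 against T (adjusted p 0.0873), and DESeq2 gave -0.26 with an adjusted p of 0.0469 for T+WSD against WSD. With CDK4 this makes 2 of 33 genes with all 6 T+WSD animals below all C animals (4.12% of all genes), and the same 2 of 33 below all T animals (3.1% of all genes). MCM4, another part of the MCM ring, had medians of 26.9 CPM in C, 30.8 CPM in T, 31.1 CPM in WSD and 22.6 CPM in T+WSD. Its log2 fold change in T+WSD against T was -0.58 ± 0.19 (adjusted p 0.0666), and -0.36 (adjusted p 0.175) without T 13, which had the highest level at 59.0 CPM. In the points of single animals T+WSD has the lowest median for all 4 genes drawn, C 1 lies below every T+WSD animal for MCM4, and the high T point of PCNA and MCM4 is T 13.

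**Figure D2:**
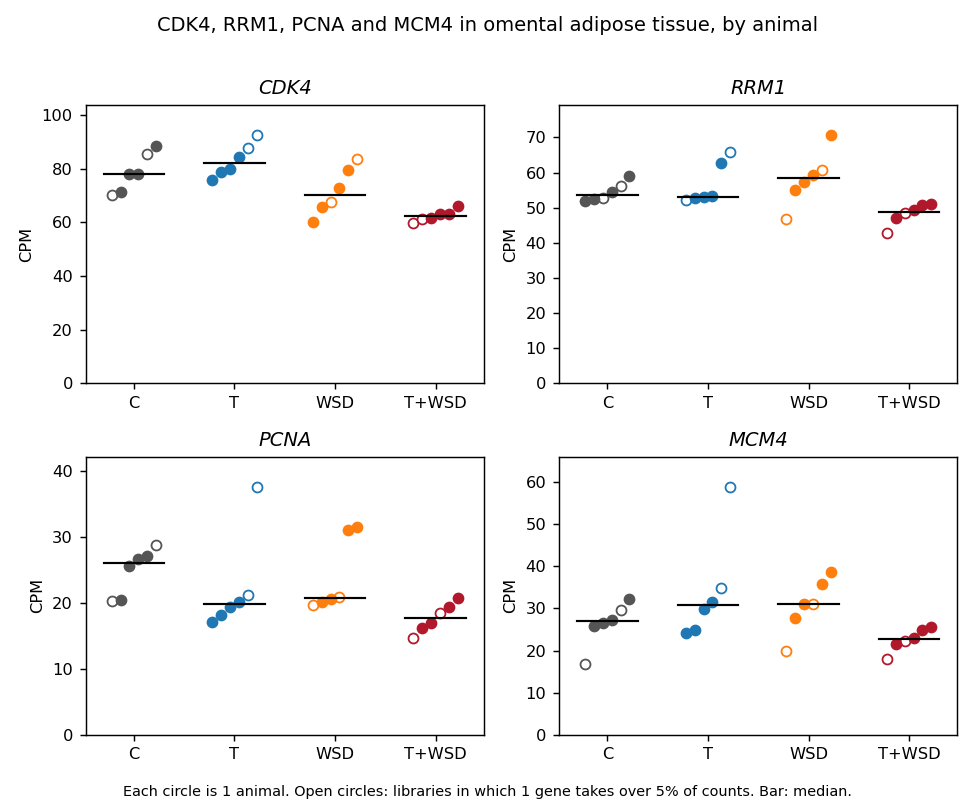
Levels in CPM (axis from 0) of CDK4, RRM1, PCNA and MCM4, 1 circle per animal in C, T, WSD and T+WSD (n = 6 each), with the group median as a bar and the 8 libraries with the abundant gene as open circles. CDK4 in T+WSD, at most 66.0 CPM, lies under all C and T animals.

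G2 and mitosis genes, 14 of 15 tested, differed more between animals of 1 group than between groups. Their summed level ran from 57.7 to 226 CPM in C with a median of 171, and the medians were 115 CPM in T, 114 CPM in WSD and 111 CPM in T+WSD. Most single genes followed: 12 of 14 had negative log2 fold changes in T against C (median -0.57), 12 of 14 in WSD against C (median -0.33; 11 by DESeq2), and 11 of 14 in T+WSD against C (median -0.55). None of these had an adjusted p under 0.05. Over all 15207 genes 8133, 7969 and 8354 were negative in the same 3 comparisons. Most of these mitosis genes rose and fell together between animals, and the comparisons share the C animals, so the counts are not independent. In T+WSD against WSD 9 of 14 were negative (median -0.14) and in T+WSD against T only 4 of 14 (median 0.06), under every scaling. The medians without the 8 libraries were -0.98 in T against C, -0.20 in WSD against C, -0.50 in T+WSD against C and 0.50 in T+WSD against T. In T+WSD against WSD 11 of 14 were then negative, with a median of -0.23. T against C had a median of -0.82, and T+WSD against T of 0.25 with 2 of 14 negative, with T 13 left out, the T animal with the highest level of 11 of the 14 genes.

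MKI67, made in cycling cells and widely used to mark them, had lowest, median and highest levels of 2.19, 26.2 and 40.5 CPM in C, 2.53, 15.3 and 29.8 CPM in T, 1.63, 15.5 and 35.1 CPM in WSD, and 2.54, 12.8 and 34.3 CPM in T+WSD (n = 6 each). Every group held an animal near the bottom of the scale (C 1, T 18, WSD 20, T+WSD 8) and at least 1 over 29 CPM. MKI67 had log2 fold changes of -0.56 ± 0.68 in T against C (adjusted p 0.839), -0.40 in WSD against C (adjusted p 0.794) and -0.54 ± 0.68 in T+WSD against C (adjusted p 0.633). For the last of these the 95% interval, -1.95 to 0.87, holds both large decreases and increases. Over 34 alternatives MKI67 ran from -1.03 to -0.32 in T against C and from -0.73 to -0.15 in WSD against C. In T+WSD against C it ran from -0.935 to -0.294. TOP2A, which untangles DNA before the chromosomes part, had levels of 4.27, 27.1 and 41.8 CPM in C, 1.75, 12.9 and 28.6 CPM in T, 2.03, 10.8 and 39.0 CPM in WSD, and 2.26, 9.89 and 24.3 CPM in T+WSD (n = 6 each). The same 4 animals were lowest, and the groups overlapped over most of their range. TOP2A had log2 fold changes of -0.79 in T against C (adjusted p 0.759), -0.63 in WSD against C (adjusted p 0.640) and -0.93 ± 0.68 (-2.34 to 0.48) in T+WSD against C (adjusted p 0.367). Over the alternatives these ran, in the same order, from -1.345 to -0.53, from -1.197 to -0.377 and from -1.26 to -0.675.

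CDK1, the kinase that starts mitosis, had lowest, median and highest levels of 1.46, 5.72 and 7.29 CPM in C, 2, 3.09 and 5.76 CPM in T, 1.63, 3.51 and 6.94 CPM in WSD, and 1.79, 2.81 and 6.61 CPM in T+WSD (n = 6 each). Medians in the treated groups were lower than in C, and C also held the single lowest animal. CDK1 had log2 fold changes of -0.58 in T against C (adjusted p 0.690) and -0.52 ± 0.40 in T+WSD against C (adjusted p 0.395). Over the alternatives these ran from -0.92 to -0.43 and from -0.84 to -0.37. CCNB1, the cyclin partner of CDK1, had levels of 2.70, 6.84 and 14.5 CPM in C, 4.07, 4.73 and 7.33 CPM in T, 2.03, 8.47 and 13.6 CPM in WSD, and 6.69, 9.75 and 12.6 CPM in T+WSD (n = 6 each). Unlike most mitosis genes it had its highest median in T+WSD, where no animal was low, and only the top of T reached that group. CCNB1 had a log2 fold change of 0.85 ± 0.37 (0.10 to 1.61) in T+WSD against T, with an adjusted p of 0.145. With only the 2 groups fitted it was 0.88 with an adjusted p of 0.0128, a call, and without the 8 libraries 1.18 with an adjusted p of 0.0566, in a range over the alternatives of 0.0128 to 0.255.

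**Figure D3:**
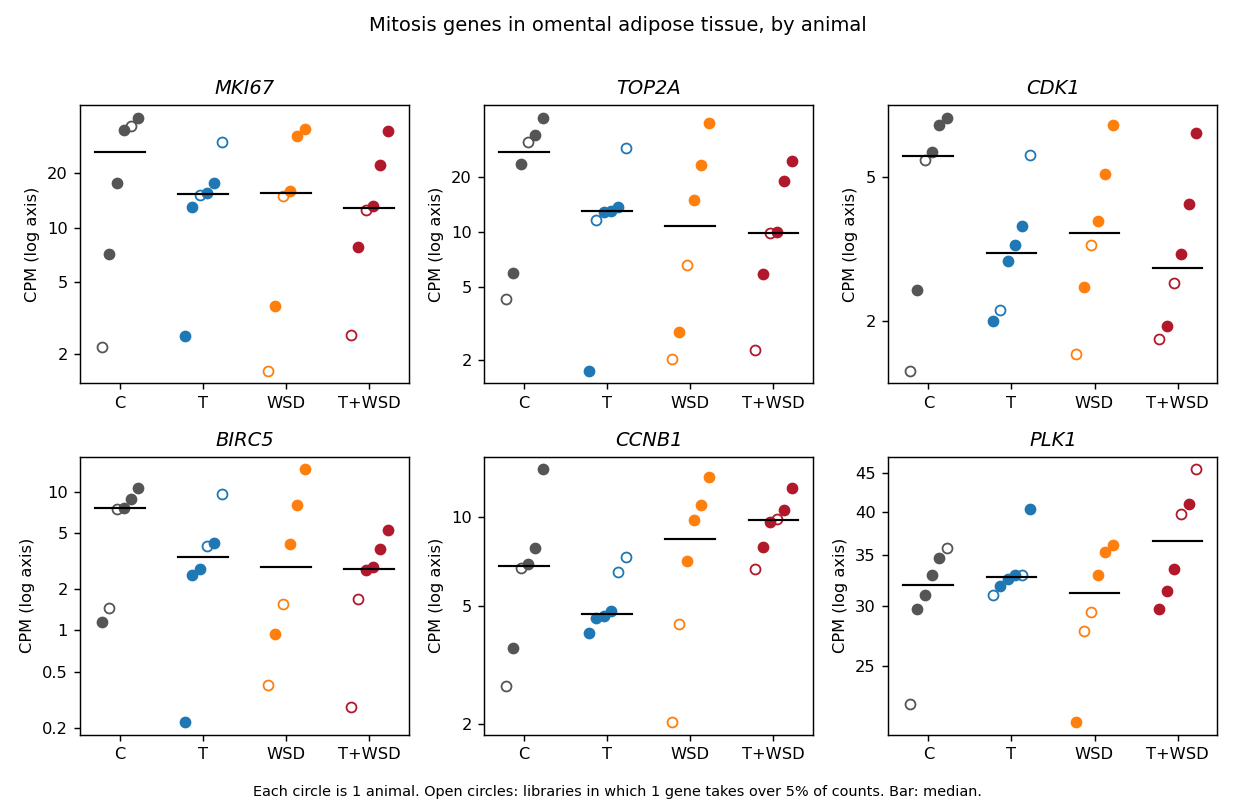
Levels in CPM (log axis) of MKI67, TOP2A, CDK1, BIRC5, CCNB1 and PLK1, 1 circle per animal in C, T, WSD and T+WSD (n = 6 each), with the group median as a bar and the 8 libraries with the abundant gene as open circles. MKI67 ran from 2.19 to 40.5 CPM in C alone, and CCNB1 had its highest median, 9.75 CPM, in T+WSD.

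Animals of 1 group lay farther apart in most mitosis genes than in D-type cyclins and their kinases, a description that was not tested and takes no account of how many counts a gene had. In the points of single animals BIRC5, which guards chromosome parting and was drawn after its values were seen, and MKI67 span most of the log axis, while PLK1 spans little. The highest level in a group was a median of 4.57 times the lowest for mitosis genes, and over 5 times in 25 of 56 pairs of gene and group. For D-type cyclins and their kinases it was 1.49 times, and over 5 times in 0 of 16 pairs. The standard deviation within groups of log2 CPM had a median of 0.808 for mitosis genes, 0.423 for genes of DNA copying and 0.228 for D-type cyclins and their kinases, beside 0.322 over all genes tested. For MKI67 it was 1.48, larger than for 97.8% of all genes, and for CDK4 0.126, larger than for 4.5%. Not all mitosis genes were spread widely: PLK1 had 0.235 and CCNF, a cyclin named after its values were seen, 0.296. C 1 had the lowest level in C for 12 of 14 mitosis genes, T 18 in T for 11, WSD 20 in WSD for 10 and T+WSD 8 in T+WSD for 7. Of these 4 animals C 1, WSD 20 and T+WSD 8 belong to the 8 libraries with the abundant gene, and the part of those libraries in the low levels was not tested.

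**Figure D4:**
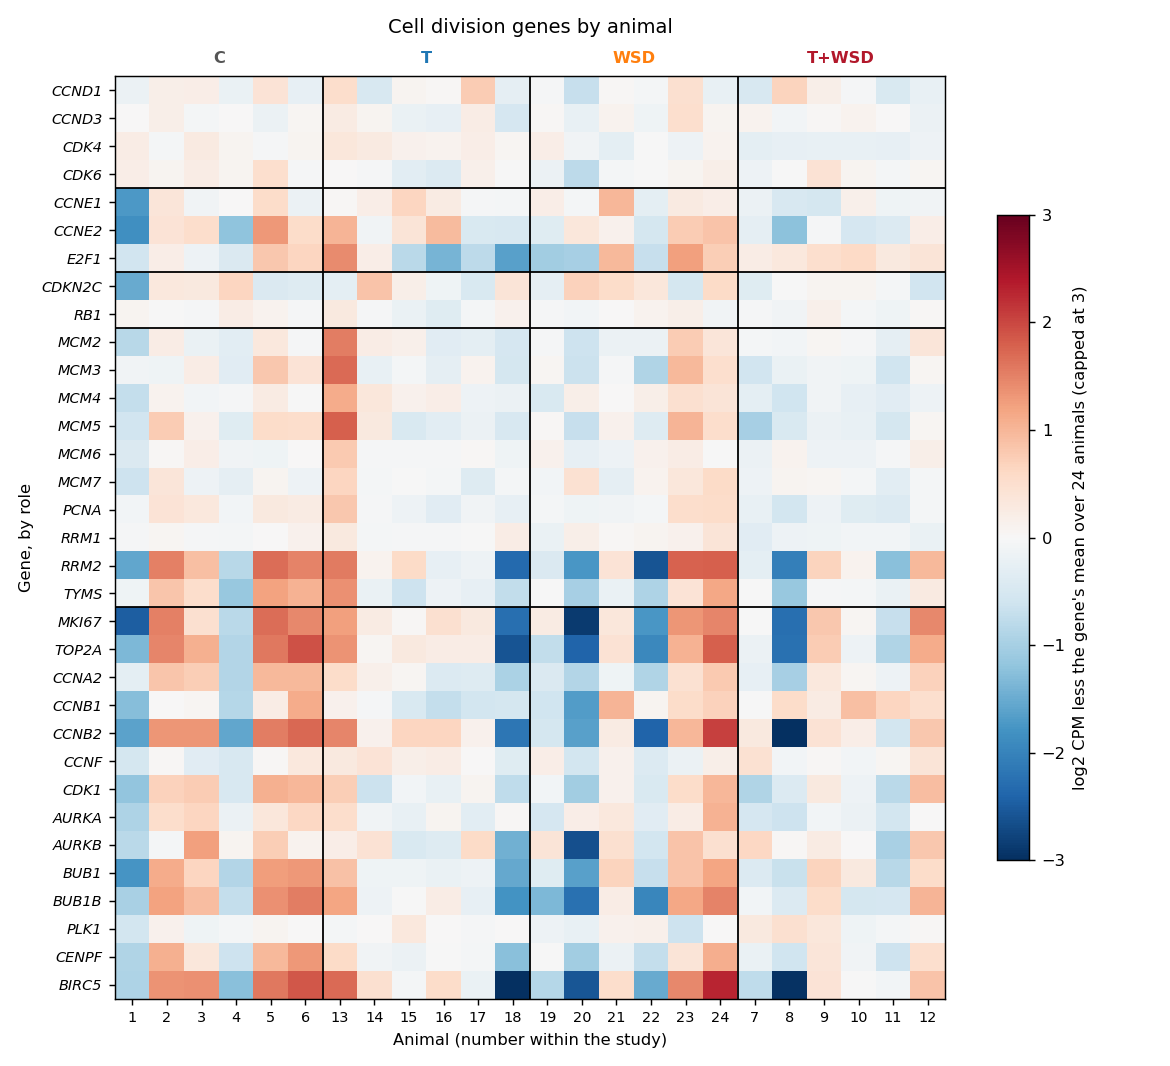
Levels of the 33 genes in the 24 animals as log2 CPM less each gene's mean over all animals (colour, capped at 3), 1 line per gene ordered by role and 1 column per animal ordered by group. C 1, T 18, WSD 20 and T+WSD 8 are low across many mitosis genes, and T 13 has the highest level in T of all 10 genes of DNA copying.

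In the map of all animals most mitosis genes are low or high in the same animals as MKI67. Some single genes varied: T+WSD 8, low in MKI67, lay above the mean in CCND1, CCNB1 and PLK1. C 1 and WSD 20, also low in MKI67, lay below the mean in the same genes, and T 18 did in CCND1 and CCNB1. Against MKI67, with group means removed over 24 animals, r was taken for 23 other genes of DNA copying and mitosis, with permutation p adjusted over the 23. Adjusted p was under 0.05 for 20 of 23 by r and for 21 of 23 by rho. TOP2A had r 0.967 and rho 0.942, CENPF, a protein of dividing chromosomes, r 0.937 and rho 0.922, and BUB1, a checkpoint kinase, r 0.935 and rho 0.903. Each of these had a permutation p of 1e-05, the smallest that the permutations can give, and adjusted values of 2.56e-05 for r and 1.92e-05 for rho. PCNA had r 0.695 and rho 0.768, with an adjusted p of 0.00135 for r and 0.000142 for rho. PLK1, a mitotic kinase, had r 0.090 (adjusted p 0.751) and RRM1 r 0.080 (adjusted p 0.751), while MCM7, of the MCM ring, had r 0.345 (adjusted p 0.149) and rho 0.472 (adjusted p 0.0424). CENPF, BUB1, PLK1 and MCM7 were chosen after their values were seen.

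Over the 23 genes the median r was 0.742, and 0.679 without the 2 animals farthest from the median of MKI67 (C 1 and WSD 20). The r of CCNB1 rested on these 2 animals, 0.640 with and 0.357 without them, and so did that of MCM6, 0.446 and 0.228. For PLK1 the sign turned, from 0.090 with them to -0.271 without. Within the 8 libraries with the abundant gene the median r was 0.742 (-0.286 to 0.973), and within the other 16 it was 0.818 (-0.083 to 0.982). With RLE scaling it was 0.741. An r over 0.8 with MKI67 was found for 8 of 13 mitosis genes (61.5%) and for 2 of 10 genes of DNA copying (20%), beside 152 of 15206 genes tested (1%). CDK4 had r 0.052, and 0 of 4 D-type cyclins and their kinases passed 0.8.

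**Figure D5:**
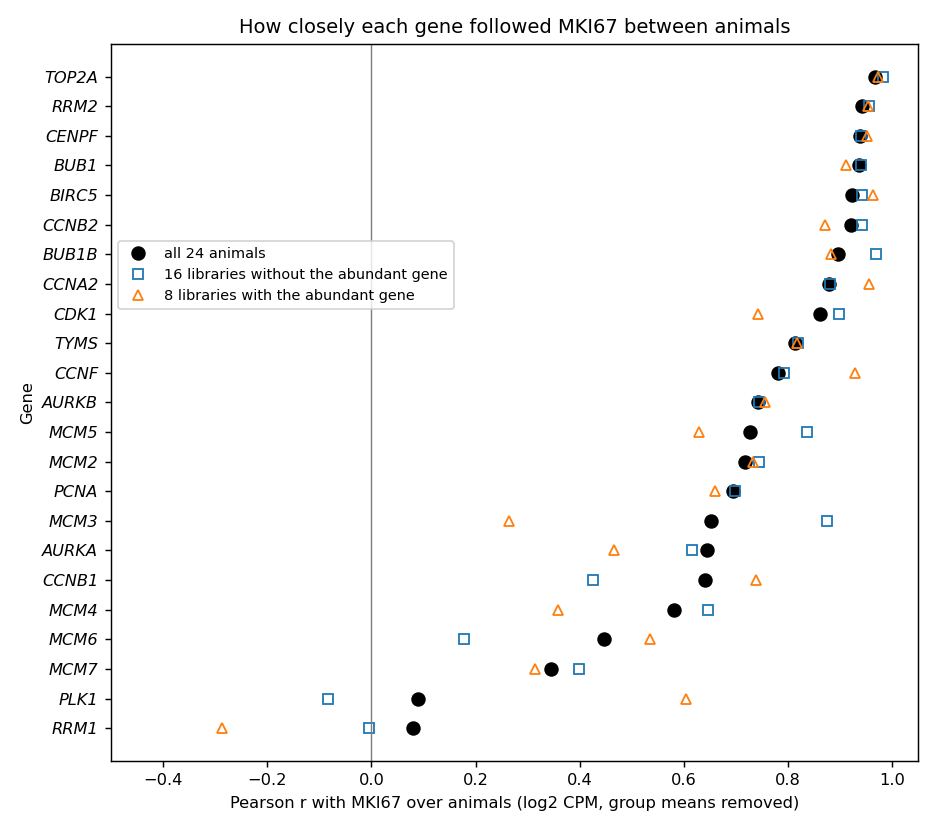
Pearson r of each of 23 genes with MKI67 (log2 CPM, group means removed), 1 line per gene, over all 24 animals (filled circles), the 16 libraries without the abundant gene (squares) and the 8 with it (triangles). TOP2A is at the top with r 0.967, and PLK1 and RRM1 are at the bottom with 0.090 and 0.080.

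In the chart of r, the triangle of the 8 libraries lies farthest from the filled circle for PLK1 (0.604 against 0.090), MCM3 (0.264 against 0.652) and RRM1 (-0.286 against 0.080). Summed levels of 8 lists of cell type markers were set against MKI67 in the same way, as relations added after the data were seen, with p adjusted over the 8. For the fibroblast and progenitor list, r was 0.815 (adjusted p 4e-04) and rho 0.796 (adjusted p 0.00032), with r 0.741 without C 1 and WSD 20, 0.978 within the 8 libraries and 0.715 within the other 16. All 8 of its 8 listed genes were tested, COL3A1 had the most counts, and none was near 0. Most counts of the sum are those of COL3A1, and gene by gene the list's r with MKI67 had a median of 0.352 (0.118 to 0.849), with 1 of 8 genes over 0.8. Its sums had lowest, median and highest values of 6120, 11770 and 18020 CPM in C, 7283, 10790 and 17020 CPM in T, 6850, 11730 and 16550 CPM in WSD, and 6148, 10030 and 12720 CPM in T+WSD (n = 6 each). The single genes of the macrophage list had a median r of 0.622 (0.597 to 0.737). For its sum r was 0.683 (adjusted p 0.00192) and rho 0.577 (adjusted p 0.0263), with r 0.535 without the 2 animals, 0.946 within the 8 libraries and 0.415 within the other 16. Of its 10 listed genes 8 were tested, CSF1R had the most counts, none was near 0, and the sums were 194, 642 and 1145 CPM in C, 323, 542 and 1172 CPM in T, 455, 698 and 1026 CPM in WSD, and 522, 838 and 955 CPM in T+WSD (n = 6 each). The part of these cells in the levels of MKI67 was not tested. None of the other 6 lists had an adjusted p under 0.05, and most of their r values changed with the animals used. T and NK cell r was 0.394 (its single genes had a median r of 0.517), with 0.877 within the 8 libraries and 0.096 within the other 16. B and plasma cell r was 0.285, with 0.856 and 0.351 there. Adipocyte r was 0.113, with 0.308 and -0.404 there and -0.297 without the 2 animals. Mesothelial r was -0.222, with -0.029 and -0.563 there and -0.182 without the 2 animals, while its single genes had a median r of 0.096 (-0.459 to 0.359). Endothelial r was 0.053, and -0.348 without the 2 animals, and erythroid r was -0.068, with -0.531 and 0.105 within the 8 and the other 16.

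Markers of some cell types differed between the same groups as CDK4. In T+WSD against C, 8 of 9 mesothelial genes tested (10 listed) were called lower (804 of 15207 over all genes), with ITLN1, the one with the most counts, at a log2 fold change of -3.28 and none near 0. Without the 8 libraries ITLN1 was at -1.96 (adjusted p 0.182). Mesothelial sums had lowest, median and highest values of 2722, 7579 and 38890 CPM in C, 2784, 3955 and 17570 CPM in T, 707, 4489 and 5977 CPM in WSD, and 236, 970 and 3070 CPM in T+WSD (n = 6 each). Of the 4 animals with the lowest MKI67 of their groups, C 1 and T 18 had the highest mesothelial sum of their group, T+WSD 8 the lowest and WSD 20 a low one at 1267 CPM. Of 9 endothelial genes, all tested, VWF had the most counts and 5 were called higher (718 of 15207 over all genes), and the sums had medians of 1443, 1706, 1789 and 2214 CPM in C, T, WSD and T+WSD. Of 7 adipocyte genes 2 were called higher, of 8 fibroblast genes 1 was called higher, of 4 erythroid genes 1 was called lower, and 0 were called among macrophage, T and NK, and B cell genes, counts of 0 to 2 on short lists where 10% of all genes were called. In T+WSD against T 6 of 9 mesothelial genes were called lower and 1 of 8 macrophage genes higher (3.77% of all genes called). None of these 7 was called without the 8 libraries, with 4 animals per group, although log2 fold changes stayed large: TREM2 of the macrophage list was at 2.01 (adjusted p 0.0653) beside 1.79 with all animals, and KRT19 of the mesothelial list at -1.91 (adjusted p 0.0586) beside -2.45. The diet main effect had 8 of 9 mesothelial genes lower, 1 of 7 adipocyte and 1 of 8 fibroblast genes higher and 1 of 4 erythroid genes lower (5.3% of all genes called). The B and plasma cell and erythroid lists had 4 tested genes each. TNFRSF17 and HBA1 of these lists were at no more than 3 counts in every animal and were not tested. Without the 8 libraries 0 marker genes were called in T+WSD against C, where calls over all genes went from 1522 to 78, and the mesothelial genes had a median log2 fold change of -1.96. In the diet main effect UPK3B, KRT19 and WT1 of the mesothelial list and LEP of the adipocyte list kept their calls without them. The part of these cell types in the levels of CDK4, PCNA and RRM1 was not tested.

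Other genes of the pathway came from a list of 103, of which 94 were tested, and few were called. For T+WSD against C, 1 of 29 other genes of DNA copying was called lower and 0 higher, 2 of 48 other mitosis genes lower and 0 higher, and 1 of 17 other inhibitors, pocket proteins and E2F genes lower and 0 higher. These 4 of 94 stand beside 10% of all genes called in that comparison, 804 of 15207 lower and 718 higher, so the share is not above that of all genes. The median log2 fold changes of these lists were -0.26, -0.59 and -0.15, beside -0.04 over all genes. In T against C and in WSD against C 0 of 94 were called, although 45 and 41 of the 48 other mitosis genes had negative log2 fold changes, with medians of -0.52 and -0.26 (44 and 41 by DESeq2). Without the 8 libraries these medians were -0.90 and -0.16. Over all 15207 genes 8133 and 7969 were negative in T against C and in WSD against C. Most of the 48 genes followed MKI67 between animals (median r 0.863), so their directions are not independent of each other. GINS1, part of the helicase at the copying fork, had medians of 16.4 CPM in C and 10.9 CPM in T+WSD and a log2 fold change of -0.59 ± 0.17 (adjusted p 0.0235). ECT2, needed for the split of the cell after mitosis, had medians of 18.9 and 12.5 CPM and a log2 fold change of -0.67 ± 0.21 (adjusted p 0.0298). All 6 T+WSD animals lay below all C animals in ECT2, as they did for 4.12% of all genes. KIFC1, a motor protein of the spindle, had medians of 7.34 and 4.00 CPM and -0.83 ± 0.28 (adjusted p 0.0427). E2F5, an E2F factor that acts mainly as a repressor, had medians of 4.11 and 2.25 CPM and -1.02 ± 0.26 (adjusted p 0.0133), and its diet main effect of -0.73 ± 0.19 was called as well (adjusted p 0.0184). RFC2, part of the loader of the PCNA clamp, was the 1 gene of 94 called for the interaction (0.809% of all genes), at -0.69 ± 0.17 (adjusted p 0.0952), with medians of 10.5, 12.9, 13 and 8.63 CPM in C, T, WSD and T+WSD. Without the 8 libraries, with 4 animals left per group, none of the 4 genes was called in T+WSD against C: GINS1 was at -0.58 (adjusted p 0.125), ECT2 at -0.62 (adjusted p 0.116), KIFC1 at -0.65 (adjusted p 0.19) and E2F5 at -0.79 (adjusted p 0.122). E2F5 kept its call in the diet main effect, at -0.67 (adjusted p 0.0482), and RFC2 lost its call for the interaction, at -0.66 (adjusted p 0.415).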

How the data were processed

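Gene counts were those deposited by the authors (FastQC 0.11.5, Trimmomatic 0.36, STAR 2.5.2b; single reads, ribosomal RNA depleted); no reads were realigned. Genes were kept by filterByExpr (minimum count 10, total 15) and tested in 1 fit of 4 groups with edgeR 4.0.16 (TMM, robust quasi-likelihood F-test, legacy=TRUE) in R 4.3.3. All tests were two-sided, with Benjamini-Hochberg adjustment over 15207 genes. DESeq2 1.42.0 was the second tool. Genes, roles, marker lists and pathway lists were chosen with earlier results of these data known. Full values were given for MKI67, TOP2A, CDK1, CCNB1, PCNA, MCM2, CCND1, CCND3, CDK4, CDKN2C, E2F1 and RB1, and for up to 5 called pathway genes per list and comparison. There were 23 relations of genes to MKI67, and 8 of cell type sums added after the data were seen, each with 100000 permutations. Alternatives covered tools, scalings, filters, thresholds, the set of 8 libraries left out or as a covariate, the 2 groups alone, and single animals left out. The scripts were tested on simulated data.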

Additional observations from a re-analysis of the deposited data

Results flagged for a closer look

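In 12 of 132 groups of 6 values, 1 animal lay far from the other 5. By chance about 1 in 20 such groups would hold such an animal if CPM levels were normally distributed, which was not checked. The genes are also not independent of each other. In 9 of the 12 the animal was T 13. It had 9.72 CPM of E2F1 (next T animal 4.13), 48.9 CPM of MCM2 (next 19.6), 37.6 CPM of MCM3 (next 12.2), 59.0 CPM of MCM4 (next 34.8) and 24.7 CPM of MCM5 (next 8.62). It also had 49.0 CPM of MCM6 (next 28.7), 61.3 CPM of MCM7 (next 38.9), 37.7 CPM of PCNA (next 21.2) and 10.1 CPM of TYMS (next 3.45). In T+WSD, animal 9 had 111 CPM of CDK6 (next 86.7). WSD animal 21 had 13.5 CPM of CCNE1 (next 8.15). T animal 15 had 40.4 CPM of PLK1 (next 33.0). All values were kept in every test unless stated.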

How the results depend on the processing

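Counts of genes called, 0 in each of 8 comparisons, stayed at 0 under most of the 34 to 36 alternatives. Without the 8 libraries with the abundant gene, T+WSD against T had 1 call and the diet main effect 1, both E2F1. With no fold threshold, T+WSD against C, T+WSD against T and the diet main effect had 1 call each, CDK4. With only the 2 groups fitted, T+WSD against T had 1 call, CCNB1. Leaving out each animal in turn gave 0 to 0 calls in every comparison. The cause was not tested.

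Over all genes, calls moved more. Without the 8 libraries T+WSD against C went from 1522 to 78 calls, T+WSD against WSD from 124 to 0, T+WSD against T from 574 to 308, the diet main effect from 806 to 443 and the interaction from 123 to 2. That fit has 4 animals per group. With all animals kept and the library set as a covariate, these were 1499, 121, 549, 780 and 131. Leaving out 1 animal at a time gave 900 to 1790 calls in T+WSD against C, 9 (without WSD 24) to 448 (without WSD 21) in T+WSD against WSD with 36.3% to 94.7% of them higher, 238 to 828 in T+WSD against T, 477 to 990 for the diet main effect, 40 to 527 for the interaction, 0 to 59 in WSD against C, 0 to 1 in T against C and 0 to 2 for the testosterone main effect. DESeq2 called 7 in T against C, 238 in WSD against C and 131 for the testosterone main effect, each 0 by edgeR, and 431 in T+WSD against WSD, 1090 in T+WSD against T and 481 for the interaction. With no filter T+WSD against WSD had 68 calls and the interaction 38, and with only the 2 groups fitted T+WSD against WSD had 46 and T+WSD against T 1059. Of the calls in T+WSD against WSD 53.2% were higher, and 74.5% with upper-quartile scaling; for the interaction these were 64.2% and 84.5%, and 76.8% with RLE.

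6 animals per group leave wide intervals for mitosis genes. The 8 libraries hold 2 of 6 animals of each group. Whole tissue was sequenced, with no count of cells. Counting tool and strand setting are not stated in the sources used. No paired analysis was possible because each animal was assigned at random to 1 of the 4 groups, which share no animals. The runs without C 1 and WSD 20, and the 8 cell type relations, were added after seeing the data.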
